A study of Drosophila melanogaster with 12 samples.

Results

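The X chromosome regions bound by ORC2 in the larval fat body are described here, from the tip of the X to the first annotated ribosomal RNA gene near its base. ORC2 is a subunit of the origin recognition complex, and regions were taken as members when they lay on the X and ended before that gene began. Over 6 lists this gave 811 of 8162 regions. The 3 merged lists, in which the peaks of both replicates of a stage were joined, held 718 of these: 413 came from 2nd instar fat body, 255 from mid-3rd instar and 50 from late-3rd instar. The 3 high-confidence lists, which keep peaks with an irreproducible discovery rate (IDR) between replicates under 0.1, held 93, with 47, 38 and 8 at the 3 stages. In stage order the last member ended at 23097890, 23097648 and 23037384, and the next X region began at 23205762, 23205027 and 23205035. The nearest regions left out thus began within 5 kb of the limit, and the nearest members lay further from it.

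All samples were fat body from male, wild-type OregonR larvae, hand-dissected and with the testes taken out. Larvae of the 2nd instar were picked 67 to 68 h after egg laying and those of the mid-3rd instar after 91 to 92 h, while wandering larvae stood for the late-3rd instar. Each sample pooled many animals, 120 at 2nd instar and 60 at each later stage. Each stage had 2 biological replicates of anti-ORC2 chromatin immunoprecipitation and an input library for each, for 12 libraries in all. How many reads each library holds is unknown here, so no interval that needs the depth is given. The lists hold positions only, so the tissue could not be checked by marker genes.

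The origin recognition complex marks the places where the replicative helicase can be loaded, and only licensed places can start DNA replication in the following S phase. The larval fat body, which stores nutrients for metamorphosis, grows by endocycles in which cells replicate their DNA without dividing and so become polytene. Male cells carry a single X, whose transcription is raised by the dosage compensation complex, a set of MSL proteins with the roX RNAs. All positions below are in Release 6 of the genome, and whether a site lies in an exon or an intron could not be read, since the gene table used gives only the outer ends of each gene and no strand.

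ORC2 peaks were sparser on the X than on the autosome arms in every library. By replicate, the X held 322 and 322 MACS2 peaks in 2nd instar, 104 and 245 in mid-3rd instar and 28 and 43 in late-3rd instar. Per Mb of sequence that is 13.9 and 13.9, 4.48 and 10.6, and 1.21 and 1.85. The arms 2L, 2R, 3L and 3R together held 34.3 and 30.6, 6.84 and 14.9, and 2.28 and 3.50 peaks per Mb in the same libraries. The X was below each of the 4 arms in 6 of 6 libraries. Within a library, the X density divided by the arm density was 0.405 and 0.454 in 2nd instar, 0.655 and 0.711 in mid-3rd instar and 0.530 and 0.530 in late-3rd instar. On the log2 scale the ratio averaged -0.90 ± 0.31 (SD, n = 6), and an exact sign-flip permutation test over the 6 replicates gave a two-sided p of 0.03125, the smallest it can give. Adjusted by the Benjamini-Hochberg method over the 2 comparisons of X and arms the exact p stayed 0.0313, and over all 8 tests of this description it was 0.125. In the high-confidence lists the X had 2.03, 1.64 and 0.345 peaks per Mb in stage order, against 6.38, 2.14 and 0.257 on the arms, so at late-3rd instar, with 8 X peaks, the X was the denser. A male cell has 1 X for each pair of autosomes, and copy number and binding per copy cannot be told apart from peak lists.

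**Figure D1:**
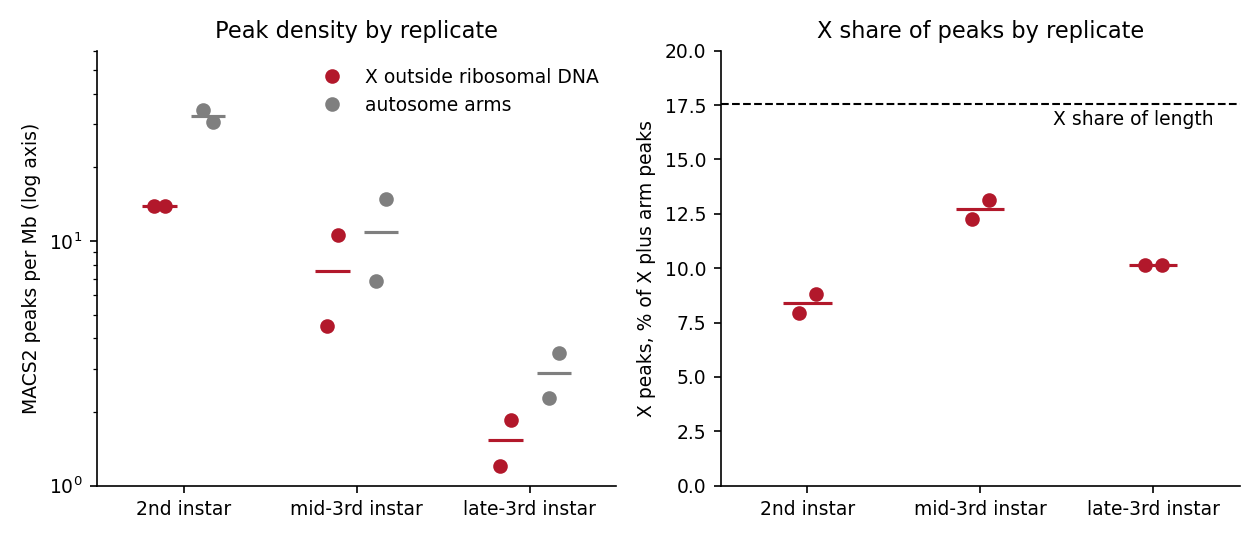
Left, MACS2 peaks per Mb on a log axis for the X outside ribosomal DNA (red) and the autosome arms (grey), with a point for each replicate and a line for the mean of 2 replicates. Right, X peaks as a percent of X plus arm peaks, with the X share of sequence length, 17.6%, as a dashed line: all 6 points lie below it, the mid-3rd instar pair highest.

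The X held fewest peaks at late-3rd instar, whereas the X share of the MACS2 peaks of single replicates was highest at mid-3rd instar. The X held 7.94% and 8.82% of X plus arm peaks in 2nd instar, 12.2% and 13.2% in mid-3rd instar and 10.1% and 10.1% in late-3rd instar, while it makes up 17.6% of the sequence. The replicate values of the 3 stages did not overlap, either for the share or for the number of peaks. The mid-3rd instar share was 4.32 percentage points above that of 2nd instar, and the late-3rd instar share differed by -2.56 points from mid-3rd instar and by 1.76 points from 2nd instar. The last difference was 0.043 points when merged regions holding a peak of the replicate were counted and 0.54 points with all listed chromosomes in the denominator (exact permutation p = 0.667 for each), and in both cases the replicate values of the 2 stages overlapped. The mean number of X peaks at mid-3rd instar was 0.542 times that at 2nd instar, and late-3rd instar had 0.203 times as many as mid-3rd instar and 0.110 times as many as 2nd instar. Each of these 6 comparisons gave an exact permutation p of 0.33, which is the smallest that 2 against 2 replicates allow, so none could pass 0.05. The mid-3rd instar counts rest on replicates that differed by more than 2-fold. Without mid-3rd instar replicate 2 the ratio to 2nd instar was 0.323 and that of late-3rd to mid-3rd instar 0.341. In the high-confidence lists the X held 5.90%, 12.4% and 13.3% of the peaks on all chromosomes in stage order. There the share was highest at late-3rd instar, with 8 X peaks.

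Merged X regions lay further apart than merged regions of the arms. The median distance between neighbouring X regions was 21.8 kb in 2nd instar, 43.8 kb in mid-3rd instar and 247 kb in late-3rd instar, against 8.78, 25.3 and 68.4 kb on the arms. Between high-confidence peaks it was 244, 476 and 1575 kb on the X, against 84.2, 262 and 1858 kb on the arms, so that the order turned round at late-3rd instar. Of neighbouring merged X regions 22.8%, 12.2% and 12.2% lay within 5 kb of each other in stage order. Distances of 150 kb or more numbered 48 in 2nd instar, 50 in mid-3rd instar and 29 in late-3rd instar, and these stretches covered 11.1, 14.5 and 22.2 Mb of the X. With 1 replicate the lists are shorter and the medians longer: 38.3 kb at 2nd instar without replicate 2, 32.8 kb without replicate 1, 147 kb at mid-3rd instar without replicate 2, and 564 kb at late-3rd instar without replicate 2.

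**Figure D2:**
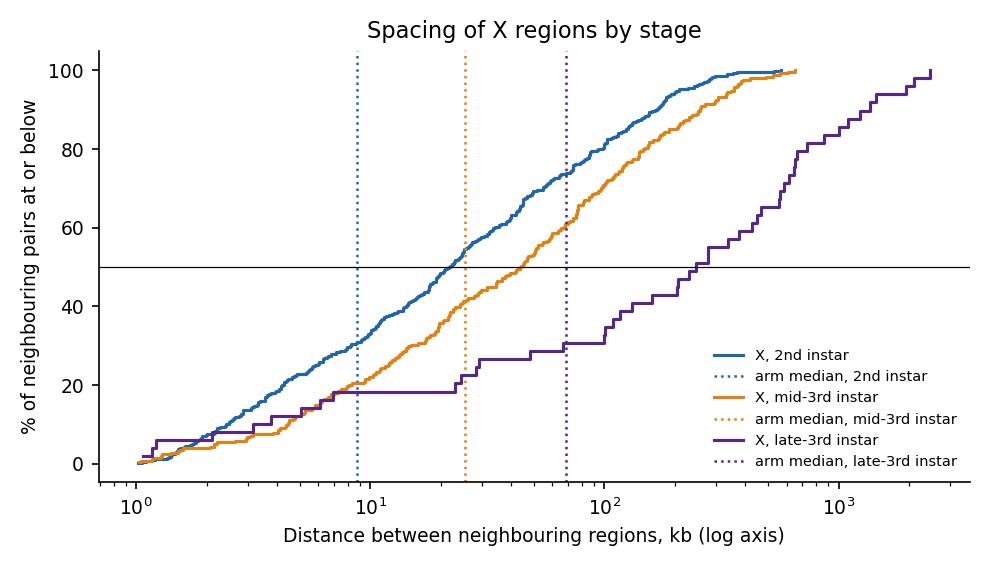
Cumulative percent of neighbouring X regions (solid lines) at or below each distance in kb, on a log axis, for the 3 stages. Dotted lines give the autosome arm medians, 8.78, 25.3 and 68.4 kb, and each X curve crosses 50% to the right of the dotted line of its stage.

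Of the 5 longest stretches without a 2nd instar region, 1 held more protein-coding genes per 100 kb than the X as a whole, and the others held fewer. The longest, chrX:19666363-20235916 (570 kb), held 70 whole protein-coding genes, or 12.3 per 100 kb, against 9.45 per 100 kb over the X. It includes Zw, which encodes glucose-6-phosphate dehydrogenase, dome, the receptor of the JAK/STAT pathway, and zld, the activator of the zygotic genome. The mid-3rd instar list had 3 regions in it and the late-3rd instar list 0. The next, chrX:1240261-1772497 (532 kb), held 48 protein-coding genes (9.02 per 100 kb), among them br, the ecdysone-induced transcription factor Broad, and had 2 regions at mid-3rd and 2 at late-3rd instar. The third, chrX:21852145-22221007 (369 kb), was gene-poor, with 4.07 protein-coding genes per 100 kb, and had 0 regions at any of the 3 stages. The fourth, chrX:7324775-7678705 (354 kb, 6.50 per 100 kb), which ends in ct, the homeodomain gene cut, had 0 regions at all 3 stages. The fifth, chrX:5085354-5420749 (335 kb, 6.26 per 100 kb), held Mcm3, a subunit of the replicative helicase, and had 1 mid-3rd instar region.

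In bins of 1 Mb the X held between 7 and 33 regions in 2nd instar, between 3 and 22 in mid-3rd instar and between 0 and 9 in late-3rd instar, with 5 of 24 bins empty at the last stage. The 7 came from the last bin, which begins at 23 Mb and is cut short at the limit. At 2nd instar the fullest bins began at 0 Mb and 13 Mb, with 33 regions each, and at 15 Mb, with 29. Of the complete bins, those beginning at 1 Mb and 18 Mb, with 8 each, and at 14 Mb, with 9, had fewest. Across the 24 bins, whose counts share libraries, Spearman's rho of merged regions was 0.69 between 2nd and mid-3rd instar and 0.20 between 2nd and late-3rd instar. The 2nd instar replicates gave 0.71, from regions of single replicates, so rho between stages and between replicates are not on a like basis. The replicates of mid-3rd instar gave 0.63 and those of late-3rd instar 0.44. At late-3rd instar the bin beginning at 21 Mb held most, with 9 of the 50 regions, while it held 16 at 2nd instar and 15 at mid-3rd instar. Of these 9 regions 8 held a peak of replicate 2 and 3 a peak of replicate 1, and among regions with a replicate 1 peak the bin beginning at 14 Mb held more, with 4.

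Sites called at mid-3rd instar alone made up a larger share of the X than of the arms, which is given as a description with no test. When regions within 1 kb were joined over the 3 stages, the X had 527 sites and the arms 4039. Sites seen at mid-3rd instar alone made up 109 of the X sites (20.7%) and 331 of the arm sites (8.20%). Most of them rest on 1 library, since 12 of these 109 X sites and 29 of these 331 arm sites held peaks of both replicates. Sites of 2nd instar alone were 258 on the X (49.0%) and 2198 on the arms (54.4%), and sites of both these stages but not late-3rd instar 113 (21.4%) and 975 (24.1%). Sites at all 3 stages were 28 on the X (5.31%) and 303 on the arms (7.50%). Late-3rd instar alone gave 7 X sites (1.33%) and 111 arm sites (2.75%).

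**Figure D3:**
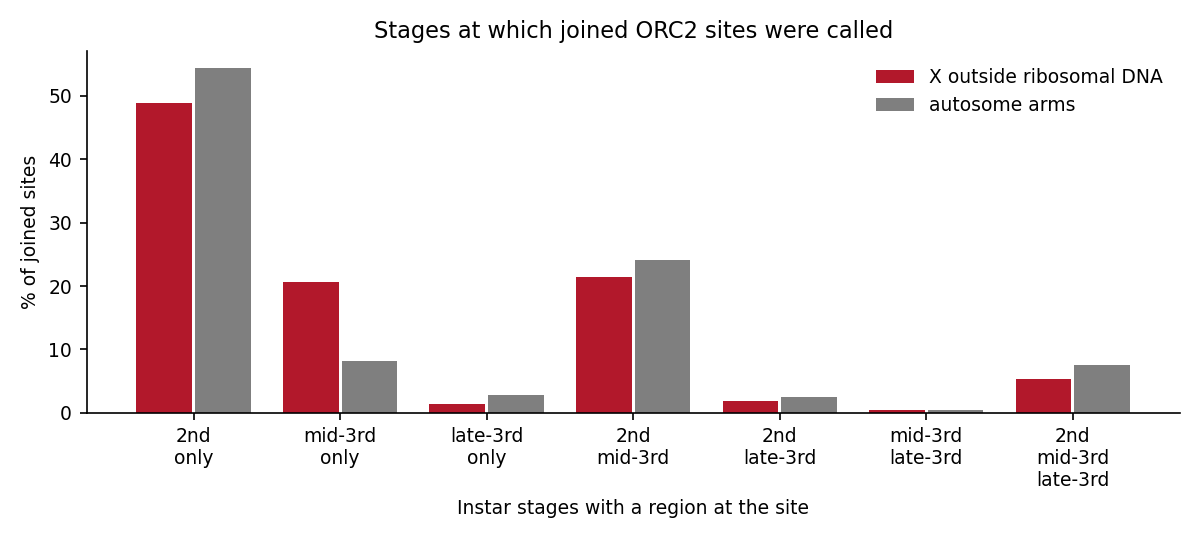
Percent of joined ORC2 sites by the stages at which a region was called, for 527 sites of the X outside ribosomal DNA (red) and 4039 sites of the autosome arms (grey). Sites called at mid-3rd instar alone made up 20.7% of X sites and 8.20% of arm sites, and most of them held a peak of a single replicate.

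Fewer mid-3rd instar regions had a 2nd instar region within 1 kb on the X than on the arms. On the X 144 of 255 did, or 56.5% (95% Wilson interval 50.3 to 62.4%, which treats regions as independent), against 1320 of 1674 (78.9%) on the arms and 76.6% over all chromosomes. By replicate, 75.3% of X regions with a peak of mid-3rd instar replicate 1 did, against 88.8% on the arms, and 55.3% of those with a peak of replicate 2, against 78.5%. Among regions with peaks of both mid-3rd instar replicates the shares were 79.7% on the X and 91.6% on the arms. The X was lower in both replicates, but with 2 replicates an exact sign-flip test cannot go below 0.5 and was not run. Of the 111 X regions without a 2nd instar counterpart, 101 held a peak of replicate 2, 23 a peak of replicate 1 and 13 of both. Their midpoint lay within 1 kb of a gene end in 75 cases (67.6%), against 57.6% of X regions with a counterpart. Over all chromosomes the share of mid-3rd instar regions was 65.7%. In all, 68 of 255 mid-3rd instar X regions (26.7%) lay over 10 kb from any 2nd instar region, against 8.72% on the arms.

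The same held for high-confidence peaks. On the X 9 of 38 mid-3rd instar high-confidence peaks (23.7%) had no 2nd instar region within 1 kb, against 15 of 233 (6.44%) on the arms and 7.82% over all chromosomes. These 9, chosen after their values were seen, included a peak of 3353 bp over Lsp1alpha (chrX:12489849-12493201, IDR 0.0724), which encodes a larval serum protein that the 3rd instar fat body makes in bulk. Others lay at Atf3 (chrX:1274920-1275447), a bZIP transcription factor gene, at csw (chrX:2094044-2094514), the tyrosine phosphatase corkscrew, and within regucalcin (chrX:12013301-12013675), whose protein binds calcium. The remaining 5 lay within Tlk, the Tousled-like kinase gene (chrX:3727814-3729405), within CARPB (chrX:9787871-9788533), at the microsomal glutathione S-transferase gene Mgstl (chrX:21042055-21042750), at Tpst and CG46311 (chrX:13563503-13564049), and beside CG4586 (chrX:6969225-6969610). The high-confidence lists keep peaks common to both replicates, so each of the 9 held a peak of both mid-3rd instar replicates by selection.

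In the other direction the X interval took in the arm share. Of 413 X regions of 2nd instar, 145 (35.1%, interval 30.7 to 39.8%) had a mid-3rd instar region within 1 kb, against 36.5% on the arms and 37% over all chromosomes, and 41 (9.93%, interval 7.40 to 13.2%) had a late-3rd instar region, against 11.5% on the arms and 12.8% over all chromosomes. The first share was 17.4% without mid-3rd instar replicate 2, and the second 4.36% without late-3rd instar replicate 2. Of the 50 late-3rd instar X regions 41 (82.0%, interval 69.2 to 90.2%) had a 2nd instar region, against 75.8% on the arms and 76.9% over all chromosomes, and 33 (66.0%) had a mid-3rd instar region, against 59.4% and 60.3%. On the X 82.0% of late-3rd instar regions overlapped a 2nd instar region directly, and 81.8% and 82.9% of those with a peak of replicate 1 and of replicate 2 had one within 1 kb. The arms gave 58.7% and 87.9%, so the order of X and arms differed between the replicates.

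**Figure D4:**
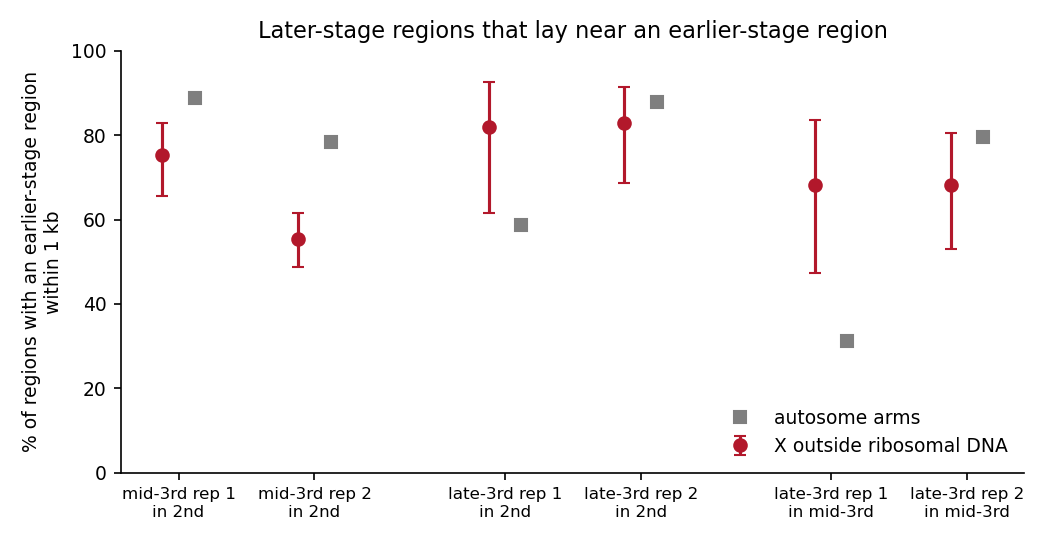
Percent of later-stage regions holding a peak of the named replicate that had an earlier-stage region within 1 kb, for the X outside ribosomal DNA (red, with 95% Wilson intervals over regions) and the autosome arms (grey squares). Both mid-3rd instar replicates have the X below the arms, at 75.3% against 88.8% and 55.3% against 78.5%, while the late-3rd instar replicates differ in order.

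High-confidence peaks alone were shared between stages as follows. Of the 38 mid-3rd instar X peaks 12 (31.6%) had a 2nd instar one within 1 kb, against 54.5% on the arms and 56% over all chromosomes, and 3 (7.89%) had a late-3rd instar one, against 4.29% and 10.1%. Of the 47 X peaks of 2nd instar 11 (23.4%) had a mid-3rd instar counterpart, against 18.0% on the arms and 21.5% over all chromosomes, and 3 (6.38%) a late-3rd instar one, against 1.29% and 3.64%. Of the 8 late-3rd instar X peaks 3 (37.5%) had a 2nd instar counterpart (39.3% on the arms and 55% over all chromosomes) and 3 a mid-3rd instar one (35.7% and 53.3%). Among merged regions, 31 of 255 mid-3rd instar X regions (12.2%) had a late-3rd instar region, against 19.8% on the arms and 21% over all chromosomes.

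Peaks of both replicates were found in 164 of 413 merged X regions at 2nd instar (39.7%, against 52.9% over all chromosomes), in 64 of 255 at mid-3rd instar (25.1%, against 28.3%) and in 13 of 50 at late-3rd instar (26.0%, against 12.9%). Of the 527 joined X sites 290 (55.0%) held a peak of a single replicate out of 6, compared with 40.6% of arm sites. Merged X regions were at least 600 bp wide and exactly 600 bp in 238, 184 and 34 cases, so that their widths need not be those of the peaks. They covered 343 kb, 188 kb and 39.2 kb of the X at the 3 stages.

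Of the 527 X sites 5 (0.949%) held a peak of all 6 replicates, as did 28 of the 4039 arm sites (0.693%). The 4 described here are as follows. At nAChRalpha3, a nicotinic acetylcholine receptor subunit gene, chrX:8295627-8296299 was a high-confidence peak at all 3 stages (IDR 0.000523, 0.00691 and 0.0370 in stage order), and lay 19.5 kb from the nearest gene end. A companion site in the same gene, chrX:8293803-8294506, was found in 5 replicates, all but mid-3rd instar replicate 1. The remaining 3 included chrX:20377291-20378815, which lies between genes 1.53 kb from CG12679. Another was chrX:21842718-21843703, between genes 52.5 kb from the end of flam, the flamenco locus that gives rise to transposon-silencing piRNAs. The last was the Stellate gene cluster, a stretch of 14298 bp that joined 4, 2 and 4 regions in stage order. Its peaks in the 6 replicates therefore need not lie at the same position.

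Of the 28 X sites at all 3 stages, 10 had a high-confidence peak at 2 or more stages. Beside the nAChRalpha3 sites and the Stellate cluster they included the adjacent ends of Rala, a Ras-like GTPase gene, and Tlk (chrX:3719470-3720113), the end of Sxl (chrX:7097795-7098481), the end between Naxe and RhoU (chrX:10086004-10086717), a site within the cell adhesion gene kirre (chrX:3075630-3077342), chrX:18429428-18432195 near CG42323, and chrX:21836299-21839344, which lies between genes 47.1 kb from flam. Sxl encodes the RNA-binding protein that in females sets sex determination and blocks dosage compensation. Its site held a peak of both replicates at 2nd and mid-3rd instar and of replicate 2 alone at late-3rd instar, with its midpoint 85 bp from the gene end. The same 5 libraries, without late-3rd instar replicate 1, gave the sites at Rala and Tlk, at RhoU, at kirre and near CG42323.

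**Figure D5:**
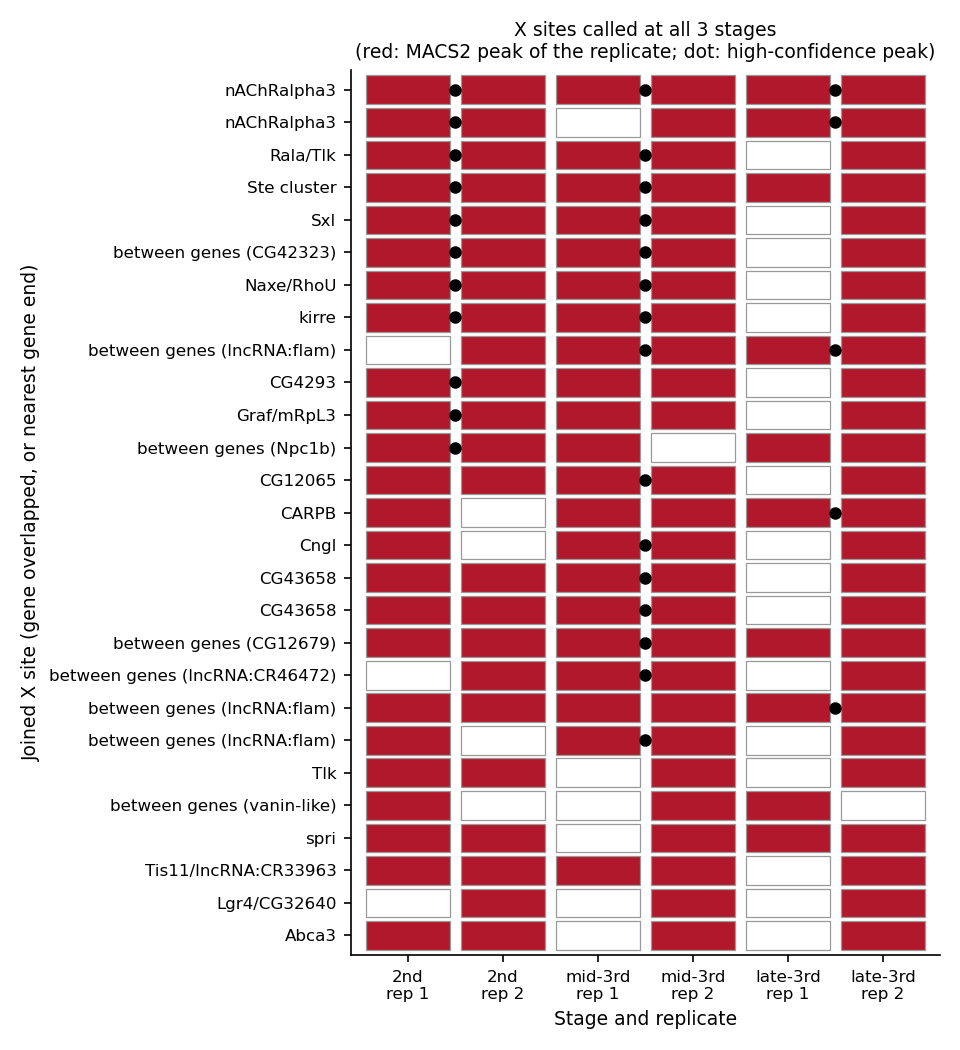
X sites with a region at all 3 stages, 27 of the 28 being shown (rows, named by the genes overlapped or, for sites between genes, the nearest gene end) against the 6 replicates (columns). Red cells hold a MACS2 peak of the replicate, white cells do not, and a dot marks a high-confidence peak of the stage: 4 rows are red in all 6 columns, and late-3rd instar replicate 1 has most of the white cells.

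The 2nd instar high-confidence peaks of the X lay mostly at gene ends. Beside nAChRalpha3, low IDR values belonged to peaks between brn, a glycosyltransferase gene, and cib, an actin-binding protein gene (chrX:4105757-4106241, IDR 0.000451), between Rala and Tlk (0.000494), in the Stellate cluster (0.00577) and at Sxl (0.00608). Next came CG4293 (0.00670), CycD, the gene of the growth-promoting cyclin D (chrX:15909364-15910349, IDR 0.00737), and CG12991 (0.00839). Of the 47 peaks 37 (78.7%) had their midpoint at most 1 kb from a gene end, against 72.1% over all chromosomes, and 40 overlapped a gene. At mid-3rd instar 17 of 38 (44.7%, against 63.5%) lay near a gene end, and at late-3rd instar 1 of 8 (12.5%, against 28.3%). At mid-3rd instar the lowest IDR values included those at nAChRalpha3, CG43658 (0.00861, 29.1 kb from a gene end), Rala and Tlk (0.00990), and ND-20 and eIF5, a respiratory complex I subunit gene and a translation initiation factor gene (0.0154).

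Merged X regions lay near a gene end less often than merged arm regions. At 2nd instar 54.7% of X regions and 60.4% of arm regions had their midpoint within 1 kb of a gene end (58.5% over all chromosomes), at mid-3rd instar 62.0% and 67.8% (65.7%), and at late-3rd instar 38.0% and 50.6% (47.6%). By replicate the X gave 55.6% and 55.3% in 2nd instar, 59.1% and 60.2% in mid-3rd instar and 22.7% and 39.0% in late-3rd instar. The arms gave 63.6% and 59.3%, 67.8% and 67.9%, and 28.3% and 61.4%. The X was lower in 6 of 6 replicates, by a mean difference of -9.37 ± 6.59 percentage points (SD, n = 6; exact two-sided sign-flip p = 0.03125, adjusted 0.0313 over 2 comparisons and 0.125 over all 8). The late-3rd instar share of merged X regions was 22.7% without replicate 2.

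Of the 2680 X genes annotated before the limit, 19.1% had a 2nd instar region within 1 kb, 13.9% a mid-3rd instar region and 2.13% a late-3rd instar region, while over all chromosomes 30.9%, 17.9% and 4.79% of genes did. Protein-coding X genes near a 2nd instar region had a median length of 5.57 kb, against 2.24 kb for the rest, and longer genes have more room for a region. NFAT, a transcription factor gene, and trol, which encodes perlecan, each had 6 regions in 2nd instar, then 2 and 0 in mid-3rd instar and 0 in late-3rd instar. Tlk, by contrast, had 4, 4 and 2 regions. The 2 mid-3rd instar regions of NFAT and the 2 late-3rd instar regions of Tlk held peaks of replicate 2 alone.

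The gene lists that follow hold X genes alone, so their like background is the share of all X genes, 19.1%, 13.9% and 2.13% in stage order. Over all chromosomes the shares were 30.9%, 17.9% and 4.79%. Of 3 X-linked dosage compensation genes, roX1 had a 2nd instar high-confidence peak (chrX:3862154-3862794, IDR 0.0886) with peaks of both replicates. The site was not listed at mid-3rd or late-3rd instar, where the nearest regions were 45.5 kb and 114 kb away. roX2, which ends at 11580432, had a region of 2nd instar replicate 2 alone. That region, chrX:11580423-11581022, lay mostly past the end of roX2 and also overlapped the neighbouring gene nod. The third gene, mof, the acetyltransferase of the complex, had none within 1 kb. Of the 5 genes of the chorion amplicon at 7F, which ovarian follicle cells amplify, 0 had a region at 2nd or late-3rd instar. At mid-3rd instar 1 (20%), Cp7Fa, had a region of replicate 2, which lay 0.892 kb away.

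Of 14 X-linked replication and cell cycle genes, 2 (14.3%) had a region in 2nd instar, 4 (28.6%) in mid-3rd instar and 0 in late-3rd instar. Over all X genes the shares were 19.1%, 13.9% and 2.13%. CycD and mei-41, the fly ATR kinase gene, were the 2nd instar pair and had a region at mid-3rd instar too, that of mei-41 in replicate 2 alone. The mid-3rd instar additions were Mcm3, in replicate 2 alone, and fzr, in both replicates (chrX:4679392-4680138). The region counted for Mcm3, chrX:5322390-5322989, lay 0.866 kb away and overlapped the gene Rnp4F and not Mcm3. fzr encodes the activator of the anaphase-promoting complex that switches cells into the endocycle.

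Among 14 ecdysone, glue and fat body genes, Yp3, a yolk protein gene, had a 2nd instar region 0.675 kb away. That region, chrX:13762222-13762903, overlapped the neighbouring gene rdgB and not Yp3. The rdgB site was also called at mid-3rd instar, in replicate 2 alone, 1.03 kb from Yp3 and so past the 1 kb limit. usp, the partner of the ecdysone receptor, had a mid-3rd instar region in replicate 2 alone. Lsp1alpha had one in both mid-3rd instar replicates, and br had regions at the last stage. The br regions, chrX:1628219-1628819 and chrX:1634928-1635551, each held a peak of both late-3rd instar replicates and of no earlier replicate, and the first overlapped the late-3rd instar high-confidence peak chrX:1628123-1630443 (IDR 0.0486). That peak was the single late-3rd instar high-confidence peak of the 8 on the X without a 2nd instar region within 1 kb (12.5%, against 13.3% over all chromosomes). It lies inside br and inside Mur2B, a mucin-related gene that overlaps it, 35.6 kb from the nearest gene end.

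Ribosomal protein and tRNA genes had regions mostly from a single replicate. Of 15 X-linked ribosomal protein genes 6 (40%) had a region at 2nd instar, RpL35, RpL7A, RpL17, RpS15Aa, RpL37-1 and RpS5a. Each of the 6 had peaks of replicate 2 there and not of replicate 1. Over all X genes the share at 2nd instar was 19.1%. Of 24 tRNA genes 6 (25%) had a region at 2nd instar, again in replicate 2 alone. These were not separate regions: Arg-TCG-2-1, Ser-CGA-1-1, Ser-CGA-1-2 and Arg-TCG-3-1 all lay within 1 kb of chrX:14014656-14015255. Another of them, Phe-GAA-1-2, shared chrX:6743990-6744589 with RpL17. At mid-3rd instar 2 of 15 (13.3%) and 2 of 24 (8.33%) had one, against 13.9% of all X genes, and at late-3rd instar 0.

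The Stellate cluster, 12 near-identical Ste genes at chrX:14046772-14061817, was bound at every stage. It held 4 and 8 peaks of the replicates in 2nd instar, 9 and 6 in mid-3rd instar and 9 and 1 in late-3rd instar, and 8.11, 11.1 and 7.97 kb of it were covered. High-confidence peaks numbered 2, 2 and 0. Because reads of repeated genes cannot be assigned to a copy, the count of genes bound there is uncertain. The cluster held 9 of the 28 X peaks of late-3rd instar replicate 1. Without regions within 1 kb of a Ste gene, an alternative chosen after seeing the data, the mean log2 ratio of X to arm density was -1.04, and the late-3rd instar share of X peaks was 0.35 percentage points above that of 2nd instar in place of 1.76.

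At late-3rd instar 1 of the 8 high-confidence peaks of the X (12.5%) lay within 1 kb of a gene end. The share was 17.9% on the arms and 28.3% over all chromosomes. On the X 7 of the 8 lay over 10 kb from a gene end, a distance for which no arm share is given here. The 2 with the lowest IDR, chrX:21842914-21843782 (0.00013) and chrX:21836372-21838414 (0.00591), lay in the stretch without annotated genes beyond flam, 52.6 and 46.7 kb from it. Both held peaks of both late-3rd instar replicates, as high-confidence peaks do by selection, and merged regions were present at both sites at 2nd and mid-3rd instar too. Among the next were nAChRalpha3 (0.0370) and br. flam itself had 2 regions, both at late-3rd instar and of replicate 2 alone.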

How the data were processed

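Fat body ORC2 ChIP-seq and input libraries of 3 stages, 2 replicates each, were grouped by their labels. The authors aligned reads of 40 nt with Bowtie2 and ran MACS2 on each replicate against input (q-value threshold 0.05). They deposited, for each stage, merged regions as positions with the names of the joined peaks, and high-confidence peaks with an IDR score under 0.1. The deposited lists give no read depth, so intervals cover counting of regions only. dm3 is named by the submitters, but X positions and gene ends fit Release 6, and no coordinates were converted.

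Members were X regions ending before position 23200802. The members and gene lists were chosen with earlier results of these data known. X peaks were counted by replicate from peak names, and densities used 23.2 Mb for the X and 109 Mb for the arms. Regions within 1 kb counted as shared, and gene ends came from the RefSeq gene table (Release 6). Stages were compared by exact permutation, and X and arms by exact sign flips over replicates. Regions were named by rank of IDR (10, 5 and 5 at the 3 stages), presence at all stages with 2 or more high-confidence calls, the 5 longest 2nd instar stretches and fixed gene lists. One region that this rule names is not reported here. The planned promoter comparison was not run because no sequence was used here. The alternatives tried concerned distances, the high-confidence lists, gene types, stretches near centromeres, denominators, the replicate block and leaving out each replicate. Functions were tested on simulated data. Analyses ran in Python 3.11.15 with scipy 1.17.1, pandas 2.3.3, numpy 2.4.6, statsmodels 0.14.6 and matplotlib 3.10.9.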

Additional observations from a re-analysis of the deposited data

How the results depend on the processing

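Of 136 alternative values 92 stayed on their side of the threshold or within their interval. Another 32 left their interval, 12 lost their call and 0 changed direction. The stage comparisons of X peaks and X share had too few replicates to pass the threshold under any setting. That they stayed on their side therefore says nothing about stability. Percentages of regions and median distances were judged by their interval alone, so a change of direction could not arise for them. The mean log2 ratio of X to arm density over replicates stayed below 0 under the alternatives run for it, which did not include the high-confidence lists (at late-3rd instar 0.345 peaks per Mb on the X and 0.257 on the arms). The mean log2 ratio ran from -0.98 to -0.81 when each replicate was left out in turn. The gap near gene ends likewise ran from -10.4 to -6.77 percentage points. With 5 libraries the exact sign-flip p cannot go below 0.0625, so both lost their call by construction. The alternatives for the gap near gene ends did not include the high-confidence lists either. There the share was 78.7% on the X and 72.9% on the arms at 2nd instar, so the X was higher. It was 44.7% and 66.1% at mid-3rd instar, and 12.5% and 17.9% at late-3rd instar.

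The share of mid-3rd instar X regions with a 2nd instar region was 49.8% by direct overlap, 65.5% within 5 kb and 31.6% for high-confidence peaks, and ran from 44.7% to 75.3% as each replicate was left out. The share of 2nd instar X regions with a mid-3rd instar region was 46.0% within 5 kb, 23.4% for high-confidence peaks and 22.6% for regions of both replicates (17.4% to 42.0% with a replicate left out), and with a late-3rd instar region 13.8%, 6.38% and 4.88% (4.36% to 11.9%). The share of late-3rd instar X regions with a 2nd instar region was 37.5% for high-confidence peaks and 61.5% for regions of both replicates (68% to 82.9%).

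Within 500 bp, 46.5% of 2nd and 53.3% of mid-3rd instar X regions lay near a gene end, and among high-confidence peaks 78.7%, 44.7% and 12.5% at the 3 stages. The late-3rd instar share ran from 22.7% to 39.0% by replicate. Median X spacing was 244, 476 and 1575 kb among high-confidence peaks. Among merged regions with a replicate left out it ran from 32.8 to 38.3 kb, 46.8 to 147 kb and 351 to 564 kb. These lists are shorter, which by itself lengthens distances and lowers shared shares.

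The replicate block, with same-numbered replicates as pairs, gave ratios of X peaks of 0.496 for mid-3rd against 2nd instar, 0.217 for late-3rd against mid-3rd and 0.108 for late-3rd against 2nd instar, and the differences of the X share stayed 4.32, -2.56 and 1.76 points. The smallest exact p that 2 pairs allow is 0.5, and it changed no call. Replicate numbers are not stated to mark shared animals.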
